A study of Rattus norvegicus with 56 samples.

Results

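The genes Stmn2, Tubb3, Dcx, Map2, Rbfox3, Nefl, Nefm, Nefh, Gap43 and Ina encode microtubule, neurofilament and growth proteins of neurons, plus 1 RNA-binding protein used to mark mature neurons. They were measured in cultured rat hippocampal cells exposed to repetitive transcranial magnetic stimulation (rTMS). These 10 genes, of 16481 genes with a symbol on the array, were found by matching each probe's RefSeq accession, and each gene is described by its brightest probe. They had 12 probes in all, 2 each for Nefm and Ina, and all 12 were well above background on 55 of 55 arrays, so every member passed the filter on dim probes. Over the arrays the dimmer probe correlated with the brighter one at r = 0.94 for Nefm and at r = 0.74 for Ina (n = 55, a description of signals that share their arrays).

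The cells were primary cultures from the hippocampi of Sprague-Dawley rats at embryonic day 18, grown in a neuronal medium, and each array reports the RNA of 1 sample on a single-colour Agilent rat array. All groups were of the same strain, and the labels name no genetic change in any of them. The arms were rTMS at 1 Hz (1Hz), intermittent theta-burst rTMS (iTBS), in which pulses come in short fast bursts, and SHAM, in which the coil stood away from the dish. The paper counts the hours from when stimulation ended, so 0 h in these 3 arms was not a time before treatment. Each arm had samples for 0 h and for the time points 2, 8, 24 and 48 h. Untreated cultures (CTR) were sampled at 0 h only. This gave 16 groups of 56 arrays. The 1 array of the 1Hz 2 h group whose grid the scanner software marked as bad was left out, and of the 55 arrays used, 8 groups have 4, 7 groups have 3 and the 1Hz 2 h group has 2. The sample descriptions carry running numbers that fall into 4 runs, here called culture series A (11 arrays used), B (12), C (17) and D (15), and no label says whether a run is a dissection, a day or a litter. Nothing states that arrays of a group came from separate cultures, so the p-values measure the spread between these samples.

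Growing neurites are filled with microtubules, polymers of alpha- and beta-tubulin, which associated proteins stabilise or sever. Tubb3 is the beta-tubulin isotype typical of neurons. Dcx (doublecortin) binds microtubules in migrating and young neurons and is switched off as they mature, while Map2 binds them in dendrites. Stmn2 is a stathmin that binds tubulin and favours microtubule disassembly in growth cones, and Gap43 is a membrane protein of growth cones and axon ends. Neurofilaments are the intermediate filaments that set axon calibre: Nefl, Nefm and Nefh are the light, medium and heavy chains, and Ina (alpha-internexin) is the chain that appears early in development. Rbfox3 is a splicing regulator, detected by the NeuN antibody that marks mature neurons.

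The promoters of the 3 members that both fell by 48 h (below) and have an entry in the promoter table are shown first, since these genes fell over the same hours and their promoters differ in composition. Sequences are from RefSeq, build GRCr8, and hold the 250 bases before the annotated start, 5′ to 3′ on the gene's strand, at chrX:112304162-112304411 (minus strand) for Dcx, chr19:68365437-68365686 (plus strand) for Tubb3 and chr9:75346440-75346689 (plus strand) for Map2. Capitals mark GGGCGG, the core of a GC box, and CCAAT, each searched on both strands.
Dcx: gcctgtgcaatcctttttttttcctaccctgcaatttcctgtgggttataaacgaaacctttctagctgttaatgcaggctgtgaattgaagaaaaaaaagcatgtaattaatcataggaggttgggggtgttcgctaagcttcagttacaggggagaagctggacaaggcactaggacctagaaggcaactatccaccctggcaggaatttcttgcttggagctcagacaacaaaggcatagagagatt
Tubb3: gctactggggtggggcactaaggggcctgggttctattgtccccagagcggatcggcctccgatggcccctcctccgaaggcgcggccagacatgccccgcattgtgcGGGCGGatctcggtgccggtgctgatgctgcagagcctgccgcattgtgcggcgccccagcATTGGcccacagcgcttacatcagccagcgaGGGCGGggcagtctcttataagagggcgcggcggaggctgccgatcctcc
Map2: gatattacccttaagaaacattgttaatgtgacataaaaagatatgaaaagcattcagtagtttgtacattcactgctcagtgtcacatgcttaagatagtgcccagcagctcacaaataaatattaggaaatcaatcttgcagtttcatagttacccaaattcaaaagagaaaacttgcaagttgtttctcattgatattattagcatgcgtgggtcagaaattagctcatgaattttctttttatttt
Neither motif occurred in the Dcx or Map2 window, and the Tubb3 window held 2 GGGCGG and 1 CCAAT. Of 33469 rat promoters of the same length, 30.5% held GGGCGG and 34% held CCAAT on either strand. The GC content was 44% for Dcx, 32% for Map2 and 68% for Tubb3, against a median of 51.2% over all promoters (quartiles 44% and 60%). Pairs of C followed by G numbered 2, 1 and 21, in the same order. A match is a string of letters and not a measured binding site. Of the 10 members, 4 have an entry, and the other one is Ina.

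Every value below is a level on the log2 scale in which 0 is the mean of all probes on that array, so levels of different probes cannot be set against each other, and a difference of 1 between samples is about a doubling of signal, since arrays with SDs from 3.76 to 4.48 were brought to the same SD. On the arrays 66.1% to 81.8% of spots were well above background and no member spot was saturated. The neuronal markers Snap25, Syt1, Syp, Slc17a7 and Gad1 were above background on every array, and so were 7 of 7 markers of astrocytes and 8 of 8 of the oligodendrocyte lineage, among them Gfap and Mbp. In a bulk sample, fewer neurons and less of an RNA in each neuron cannot be told apart.

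The neurofilament chains differed between the culture series. Nefl on the 11 arrays of series A lay between 3.42 and 4.35 with a median of 3.91, on series B between 2.92 and 3.55 (median 3.26), on series C between 2.74 and 3.22 (median 2.88) and on series D between 3.49 and 4.09 (median 3.83). The lowest array of series A and the lowest of series D were thus above the highest of series C, with no overlap in either pair. In the fit with the groups and the series as terms, Nefl was 1.91-fold higher in A than in C (log2 difference 0.93 ± 0.07 SE, adjusted p = 2.07e-13) and 1.89-fold lower in C than in D (-0.92 ± 0.06, adjusted p = 3.23e-15), by limma with Benjamini-Hochberg adjustment over 35694 probes.

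The heavy chain Nefh spanned a wider range. It lay between 0.11 and 0.84 in series A (median 0.57), between -1.01 and 0.34 in B (median -0.10), between -2.32 and -0.72 in C (median -1.18) and between -1.28 and 0.42 in D (median -0.33). Series A stood above all of series C, and the other pairs of series overlapped. Nefh was 3.23-fold higher in A than in C (1.69 ± 0.16, adjusted p = 5.74e-11) and 1.75-fold lower in C than in D (-0.81 ± 0.14, adjusted p = 9.51e-06). Its processed signal in C was low, at 18.2 to 68.3 units, where the median background of the arrays was 26 to 31. The medium chain Nefm lay between 6.0 and 7.23 in A (median 6.50), between 5.59 and 6.32 in B (median 5.81), between 5.62 and 6.08 in C (median 5.77) and between 6.03 and 6.48 in D (median 6.29). Nefm was higher in A than in C by 0.64 ± 0.07 (adjusted p = 6.68e-09) and 1.38-fold lower in C than in D (-0.46 ± 0.07, adjusted p = 1.94e-07), with overlap in every pair of series. By limma all 3 neurofilament chains were thus higher in A and D than in C. B against C did not pass for Nefm (0.03 ± 0.07, adjusted p = 0.781).

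Alpha-internexin was lower in series D. Ina lay between 7.08 and 9.16 in series A (median 8.10), between 8.11 and 8.76 in B (median 8.49), between 8.13 and 8.57 in C (median 8.43) and between 7.39 and 8.31 in D (median 7.96). It was lower in D than in the mean of A, B and C, 1.36-fold (-0.45 ± 0.10, adjusted p = 2.08e-04, limma), where Nefl and Nefm were higher.

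**Figure D1:**
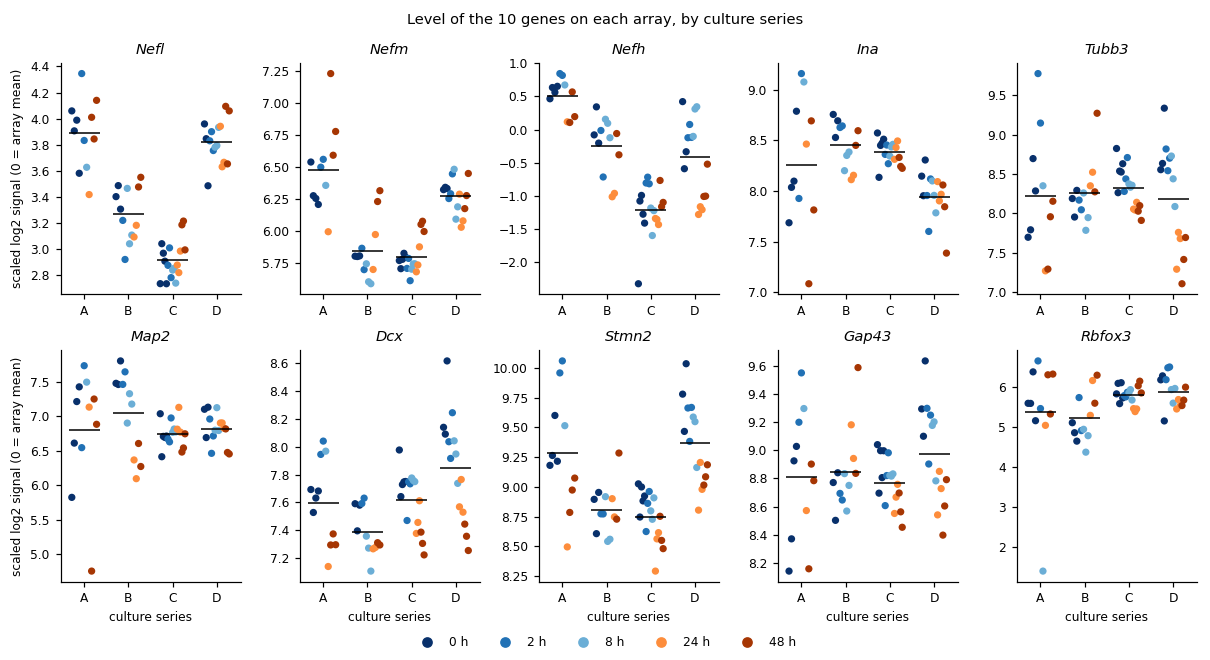
Level of each of the 10 genes on every array (scaled log2 signal, 0 = mean of the array) by culture series A to D, 1 point per array coloured by time (11, 12, 17 and 15 arrays) with the mean as a line. In Nefl the points of A and D lie above those of C, in Nefh those of A lie above those of C, and every other pair of series overlaps.

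Stmn2 and Dcx, the marker of young neurons, also differed between series, and both were higher in D than in the mean of the others. Stmn2 lay between 8.49 and 10.06 in A (median 9.21), 8.54 and 9.28 in B (median 8.77), 8.29 and 9.02 in C (median 8.75), and 8.80 and 10.03 in D (median 9.38). It was 1.37-fold higher in D than in the mean of the other series (0.45 ± 0.08, adjusted p = 8.12e-06). High Stmn2 was not particular to D, since A against D did not pass (-0.09 ± 0.11, adjusted p = 0.532, limma). Stmn2 in A was 1.45-fold above B (adjusted p = 4.27e-04) and 1.45-fold above C (4.55e-05). Dcx lay between 7.14 and 8.04 in A (median 7.63), 7.10 and 7.63 in B (median 7.33), 7.22 and 7.98 in C (median 7.73), and 7.25 and 8.62 in D (median 7.92). Dcx was 1.26-fold higher in D than in the mean of the others (0.33 ± 0.06, adjusted p = 6.34e-06), and lower in B than in each other series, for example 1.42-fold lower than in D (-0.51 ± 0.07, adjusted p = 1.88e-07, limma). All series overlapped for both genes.

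The other 4 members did not pass the test over series. Tubb3 spanned 7.11 to 9.78 over the 55 arrays (adjusted p of the F test = 0.726), Map2 4.76 to 7.80 (0.481) and Gap43 8.14 to 9.64 (0.450). Rbfox3 spanned 1.39 to 6.66 (0.064), and its low end was 1 array, replicate 1 of 1Hz at 8 h in series A, while every other array was at 4.37 or above. Under scaling by the 75th percentile and by quantiles Rbfox3 passed (adjusted p = 0.044 and 0.0389), and under quantiles Gap43 did too (1.69e-06). Without replicate 1 of 1Hz at 8 h and replicate 1 of 1Hz at 48 h, an omission chosen after the data were seen, Rbfox3 passed as well (adjusted p = 9.37e-04). The contrast of Rbfox3 in B against D passed (-0.67 ± 0.27, adjusted p = 0.039) but was lost with any 1 of 11 arrays of 0, 2 and 8 h left out (values from -0.78 to -0.55 over the 55 omissions).

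In all, 6 of 10 members differed between series (Nefl, Nefh, Nefm, Stmn2, Dcx and Ina), while 75.4% of all probes tested did. The members' share was thus not above that of the array, and what set them apart from each other was direction and size. Series A, B and C were hybridised on slides of their own (2, 2 and 3 slides) and D on all 7, so A, B and C can be separated from their slides only through the arrays of D. Against D, with the slide in the model, Nefl (0.48), Nefm (0.30), Stmn2 (0.46) and Dcx (0.38) remained higher in D than in the mean of the others and Ina (-0.46) lower, with adjusted p-values from 2.48e-08 to 8.34e-04. With the replicate number of the titles as a block beside the series, 3 of these calls ended. They were Stmn2 (0.13, adjusted p = 0.536), Dcx (0.24, 0.127) and Nefm (0.27, 0.0898), by limma. Of the differences between A and C, those of Nefl and Nefh kept their calls with the slide in the model, and those of Nefm (0.33, adjusted p = 0.146) and Stmn2 (0.40, 0.210) did not. The F test of Nefh over the series did not pass with the slide in the model (adjusted p = 0.0558).

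Markers of other cells moved with the series. The summed signal of the 8 oligodendrocyte-lineage markers, in units of each array's 75th percentile, was 15.5 to 50.9 in series D against 75 to 197.3 in A, 114.4 to 236.1 in B and 140.3 to 267.4 in C. Mog did not follow this sum, with a mean level of -1.10 in D, -1.42 in A and -1.45 in B. The 5 endothelial and fibroblast-like markers summed to 28 to 45.8 in D and 2.70 to 10.4 in the other series, of which Cldn5 was above background on 6 of 55 arrays. In D the mean level was 7.11 for Col1a1 and 7.22 for Col1a2, against at most 4.15 and 4.54 elsewhere. Dcn and Cldn5 did not follow the sum and were higher in A (5.31 and -3.16) than in D (5.11 and -3.72). The 5 neuronal markers that are no members summed to 24.4 to 32.3 in D, 14.1 to 22 in A, 11.5 to 17.3 in B and 11.6 to 15.6 in C. Syt1 and Slc17a7 among them had higher mean levels in A (4.21 and 0.83) than in D (4.06 and 0.71). The part of these cell markers in the members' differences was not tested.

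Among related genes, 12 of 12 mature neuron genes differed between series, where 75.4% of all probes did. This list includes the neuronal markers of the paragraph before, so these are not separate observations. Of the 12, 9 were higher and 1 lower in D than in the mean of the others, with a median change of 0.71 against 0.03 over all probes. Snap25, a vesicle fusion protein, was higher by 0.69 ± 0.06 (adjusted p = 5.07e-13), and Gad1, which makes the transmitter GABA, by 1.29 ± 0.09 (3.59e-15). Of 8 immature neuron genes 7 were higher in D and none lower (median 0.58), with Tbr1, a factor of young cortical and hippocampal neurons, at 0.88 ± 0.15 (5.84e-06). Of 11 other tubulins and microtubule subunits, 5 were lower in D and none higher (median -0.35). In this contrast 53% of probes passed by limma, 28.9% higher and 24.2% lower. In A against C, where 42.9% of probes passed and 22% were higher, 9 mature neuron genes of 12 were higher and 1 lower (median 0.66), and 7 of 9 other filament, axon and spectrin genes were higher (median 0.34). In the same contrast 1 of 8 immature neuron genes was higher and 4 lower (median -0.32), and of the 11 microtubule subunits 1 was higher and 2 lower (median -0.12).

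Over time, with the 3 arms and the series in the model, 5 of 10 members changed (Dcx, Stmn2, Nefm, Nefh and Tubb3), where 27% of all probes did. Between 0 and 48 h Dcx fell 1.46-fold, Map2 1.56-fold, Tubb3 1.55-fold and Stmn2 1.3-fold, and Nefm rose 1.22-fold. That is 4 members lower and 1 higher, where 13.4% of probes were lower and 13.6% higher. Map2 counts here by its contrast at 48 h alone, since it did not pass the F test over times. The median over all probes moved by -0.04, and by -0.08 under the 75th percentile scaling. Without the 15 arrays of series D, an omission chosen after the data were seen, 2 members passed over time, Dcx and Nefm. The changes at 48 h were then -0.41 for Dcx (adjusted p = 0.0027) and 0.40 for Nefm (0.00398), and the calls ended for Map2 (-0.71, 0.0553), Tubb3 (-0.33, 0.371) and Stmn2 (-0.28, 0.187). At 24 h Dcx kept its call (-0.34, adjusted p = 0.0428), while Tubb3 (-0.39, 0.481), Stmn2 (-0.38, 0.183) and Nefh (-0.30, 0.450) lost theirs.

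Dcx had the clearest course. On the 15 arrays at 0 h it lay between 7.39 and 8.62 (median 7.69) and on the 11 arrays at 48 h between 7.22 and 7.44 (median 7.30). A single 0 h array, the sham array of series B, lay inside the 48 h range. The change was -0.43 ± 0.08 at 24 h (adjusted p = 3.98e-04) and -0.55 ± 0.08 at 48 h (adjusted p = 2.41e-06, limma).

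Within series, and without the untreated arrays, Dcx was lower at 48 h in 4 of 4, by -0.93 to -0.22, with no overlap between the times. In series D the 0 h arrays were at 8.09, 8.14 and 8.62 and the 48 h arrays at 7.25, 7.36 and 7.44. In series B they were at 7.39, 7.58 and 7.59 against 7.29 and 7.31. The 4 series started apart and were close together at 48 h, where their means ran from 7.30 to 7.35.

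**Figure D2:**
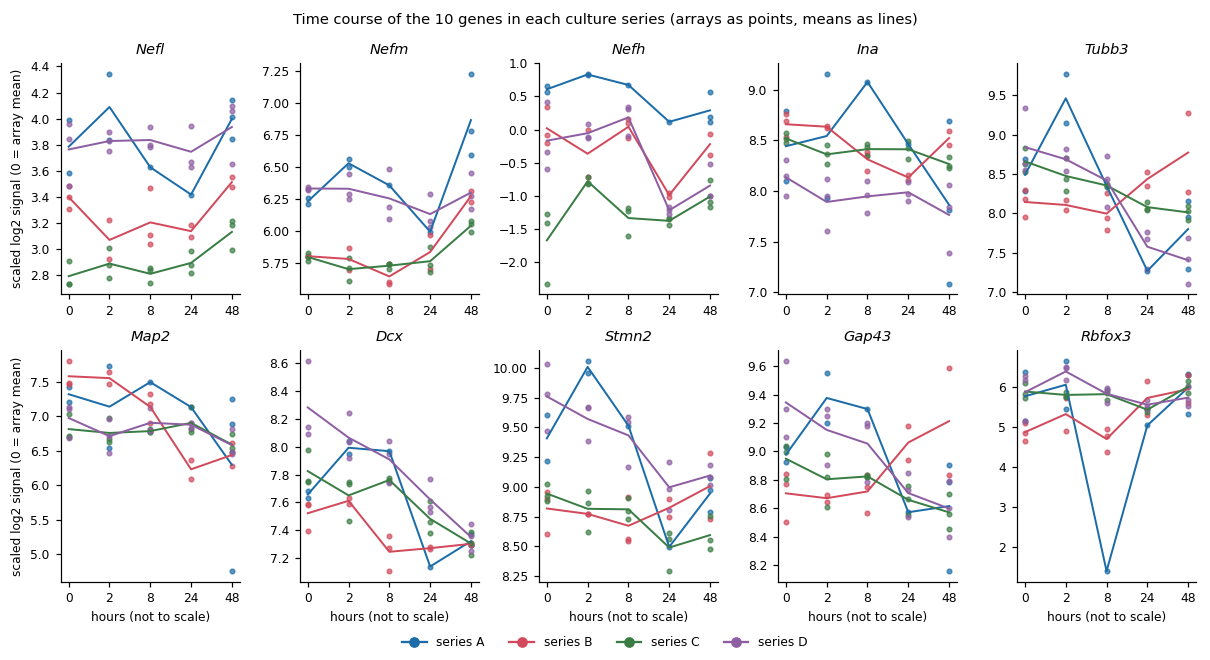
Level of each gene (scaled log2 signal, 0 = mean of the array) from 0 to 48 h, with a point per array of the SHAM, 1Hz and iTBS arms and a line through the means of each culture series. Dcx ends at 7.22 to 7.44 in all 4 series, Nefl is lowest in C at every time, and Tubb3 is lower at 48 h than at 0 h in A, C and D but higher in B.

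Tubb3, the neuronal tubulin, lay between 7.70 and 9.34 at 0 h (median 8.53) and between 7.11 and 9.27 at 48 h (median 7.96), and the ranges overlapped. The change was -0.63 ± 0.20 (adjusted p = 0.0163). It was lower at 48 h in series A, C and D, by -1.44 in D, where the 0 h arrays were at 8.56, 8.64 and 9.34 and the 48 h arrays at 7.11, 7.41 and 7.69, but higher in B by 0.63 over 2 arrays at 48 h (8.27 and 9.27). At 24 h its change was -0.64 ± 0.21 (adjusted p = 0.0316, limma), a call that 10 of 55 omissions of 1 array ended, each of a SHAM, 1Hz or iTBS array at 0 or 24 h, with values from -0.73 to -0.54.

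Map2 lay between 5.83 and 7.80 at 0 h (median 7.04) and between 4.76 and 7.25 at 48 h (median 6.54). It was lower at 48 h in 4 of 4 series, by -1.14 in B, -1.02 in A, -0.39 in D and -0.22 in C, with ranges that overlapped except in B. The fitted change was -0.64 ± 0.19 (adjusted p = 0.0104). The lowest value, 4.76, was replicate 1 of 1Hz at 48 h in series A, and over the omissions of 1 array the change ran from -0.73 to -0.49 with the call kept.

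Stmn2 fell at 24 h by -0.49 ± 0.11 (adjusted p = 0.00276) and at 48 h by -0.38 ± 0.11 (adjusted p = 0.00882). Its arrays lay between 8.61 and 10.03 at 0 h (median 9.02) and between 8.48 and 9.28 at 48 h (median 8.97). The ranges overlapped, and within series it was lower at 48 h in A, C and D with no overlap and higher in B by 0.19. Gap43, the other growth cone member, did not pass at 48 h (-0.30, adjusted p = 0.083), with the same split of 3 series lower and B higher by 0.51.

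The neurofilaments took other courses. Nefm lay between 5.71 and 6.54 at 0 h (median 5.83) and between 6.0 and 7.23 at 48 h (median 6.28), a change of 0.29 ± 0.08 (adjusted p = 0.00639). Its arrays at 48 h were all above those at 0 h in A, B and C, for example at 6.23 and 6.32 against 5.80, 5.81 and 5.81 in B, and in D the 2 times overlapped (-0.03). Nefl was higher in 4 of 4 series by 0.11 to 0.34 but did not pass (0.19, adjusted p = 0.065). Nefh was lower at 24 h by -0.56 ± 0.18 (adjusted p = 0.030), which 8 of 55 omissions of 1 array at 0 or 24 h ended (values from -0.76 to -0.40), and at 48 h it was higher in C by 0.66 and lower in the other series. Ina was lower in 4 of 4 series (-0.58 to -0.14) and did not pass (adjusted p = 0.058), and Rbfox3 was higher in 3 and lower in 1.

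The course over time differed between the series for 6 of 10 members (Rbfox3, Tubb3, Gap43, Stmn2, Dcx and Nefh), by an F test of the series by time interaction chosen after the data were seen, where 39.4% of probes did.

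At 2 h, where 0% of probes passed the test against 0 h, and at 8 h, where 2.37% did, no member passed. At 24 h, where 14% of probes passed, 8.58% higher and 5.39% lower, 4 of 10 members were lower (Dcx, Stmn2, Nefh and Tubb3) and none was higher. In the sham arm alone, over 3 to 4 arrays a time, no member passed over time, where 3.3% of probes did (Dcx adjusted p = 0.088). Dcx and Stmn2 passed there under the 75th percentile scaling (0.0101 and 0.0308).

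**Figure D3:**
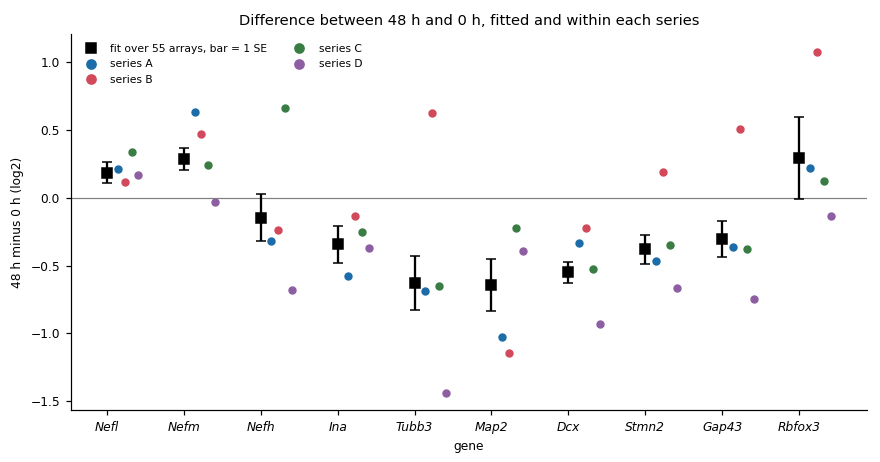
Change from 0 to 48 h of each gene (log2 difference), as fitted over the 3 arms with the series in the model (bar of 1 SE) and within each of the 4 series without untreated arrays (points). The fitted values run from -0.64 for Map2 to 0.29 for Nefm, and the points of Tubb3 range from -1.44 in D to 0.63 in B.

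Slide and time were partly tied: the 6 arrays at 48 h of slide 7 make up most of that time and slide 1 held 6 arrays at 0 h. With the slide in the model beside the series, 2 of 10 members passed over time (Nefm and Rbfox3), and the changes at 48 h were -0.40 for Dcx (adjusted p = 0.061), -1.01 for Map2 (0.059), -0.42 for Tubb3 (0.409), -0.46 for Stmn2 (0.115) and 0.48 for Nefm (0.022). On the 3 slides that held early and late arrays, the fitted level of each series was subtracted first. On slide 2 the late arrays were all of series A and the early ones of A and D, so its differences rest on that subtraction. Late (24 or 48 h) minus early (0 or 2 h) was then -0.75, -0.24 and -0.24 for Dcx and -0.67, 0.19 and 0.12 for Map2 on slides 2, 5 and 6. Only slide 2 held 48 h arrays among these, and the late arrays of slides 5 and 6 were all of 24 h.

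Astrocyte markers rose over the same hours. Of 7, 5 were higher at 48 h and none lower, with Gfap, an astrocyte filament, at 1.64 ± 0.22 (adjusted p = 5.55e-07) and S100b at 1.03 ± 0.12 (5.51e-08), and their summed signal went from 95.0 to 169 at 0 h to 140.6 to 293.9 at 48 h. Of the 5 neuronal markers that are no members none passed in either direction, and their sum was 11.7 to 32.3 at 0 h and 13.6 to 27.6 at 48 h. The part of the astrocyte signal in the members' changes was not tested.

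In each list of related genes but that of mature neuron genes, more members were lower than higher at 48 h, while 13.4% of all probes were lower and 13.6% higher. Of 16 microtubule-associated proteins and stathmins, 7 were lower at 48 h and none higher (median -0.27), among them Dpysl3, a collapsin response protein of growing axons (-0.93 ± 0.18, adjusted p = 1.36e-04), Dpysl5 (-0.57 ± 0.12, 5.57e-04) and Map1b, which binds axonal microtubules (-0.50 ± 0.12, 0.00164). Of 11 tubulins and other microtubule subunits 3 were lower, with Tuba1c at -0.47 ± 0.16 (0.0272), and 1 higher, Tuba4a at 0.39 ± 0.08 (7.43e-04).

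Of 9 other filament, axon and spectrin genes 4 were lower and none higher (median -0.36), with the motor Kif5a at -0.74 ± 0.17 (0.00153) and Nes, the filament of progenitors, at -0.64 ± 0.16 (0.00312). Of 8 immature neuron genes 4 were lower and none higher (median -0.36), with Sox11 at -0.60 ± 0.11 (1.30e-04) and Tbr1 at -0.80 ± 0.21 (0.00441). Of 12 mature neuron genes 1 was higher and none lower (median 0.07), and of 10 growth cone genes 3 were lower and 1 higher (median -0.19), with Sncg, a synuclein, at 0.93 ± 0.24 (0.00371) and the neurotrophin receptor Ngfr at -0.73 ± 0.23 (0.0157). Of 6 neuronal RNA-binding proteins 2 were lower, Rbfox2 (-0.35 ± 0.11, 0.0140) and Elavl2 (-0.38 ± 0.10, 0.00334), all by limma in the same fit.

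Whether rTMS changed these genes is the comparison the arms were made for. Across 10 comparisons (each protocol against SHAM at each time) and 10 genes, 0 of 100 passed after adjustment by limma, 0 had an unadjusted p under 0.05, and 54 of the differences were higher and 46 lower than sham. Over all probes and the same comparisons 0.0014% passed and 1.64% had an unadjusted p under 0.05. The median size of the 100 differences was 0.161 on the log2 scale. These fits had no series term, so the spread between series, 83.1% of the variance for Nefl, counts as error here. A small difference could thus be missed, and the absence of unadjusted p-values under 0.05 does not show that nothing changed.

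The difference with the smallest p and the one of largest size each held 1 array far from the rest. For Map2 at 48 h the 1Hz arrays were at 4.76, 6.48, 6.61 and 6.82 and the sham arrays at 6.48, 6.54 and 7.25. Apart from the array at 4.76 the arms overlapped, and the difference was -0.59 ± 0.34 with the smallest unadjusted p of the 100, 0.0873. For Rbfox3 at 8 h the 1Hz arrays were at 1.39, 4.95, 5.86 and 5.94 and the sham arrays at 4.37, 5.60 and 5.94 (-0.77 ± 0.57). With the series in the model the smallest adjusted p was 0.501.

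Dcx, which fell over time, varied little between arms at 48 h. The sham arrays were at 7.30, 7.36 and 7.37, the 1Hz arrays at 7.29, 7.31, 7.39 and 7.44, and the iTBS arrays at 7.22, 7.25, 7.29 and 7.29. The 1Hz arrays overlapped with sham, and the iTBS arrays lay just below sham without passing (-0.08 ± 0.21, adjusted p = 1.00, limma). That SE draws on the spread within all groups with no series term, while the SD of Dcx at 48 h was 0.036 in sham and 0.035 in iTBS. The differences of Dcx from sham ran from -0.13 ± 0.23 to 0.19 ± 0.20 over the 10 comparisons.

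Averaged over the 5 times with the series in the model, every adjusted p was 1 for both protocols, as for the array as a whole, where 0% of probes passed. The unadjusted share was 1.28% of probes for 1Hz and 1.19% for iTBS. The difference for 1Hz minus sham was 0.00 for Dcx, with an interval of 2 SE to either side of -0.13 to 0.13, and 0.01 for Nefl (-0.11 to 0.14). For Tubb3 it was -0.11 (-0.44 to 0.21) and for Rbfox3 -0.27 (-0.76 to 0.23). For iTBS it was 0.11 for Tubb3 (-0.20 to 0.43), -0.05 for Nefl (-0.17 to 0.07) and 0.07 for Stmn2 (-0.11 to 0.24). Of the members, Dcx, Nefl and Nefm had the narrowest intervals and Rbfox3 the widest.

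**Figure D4:**
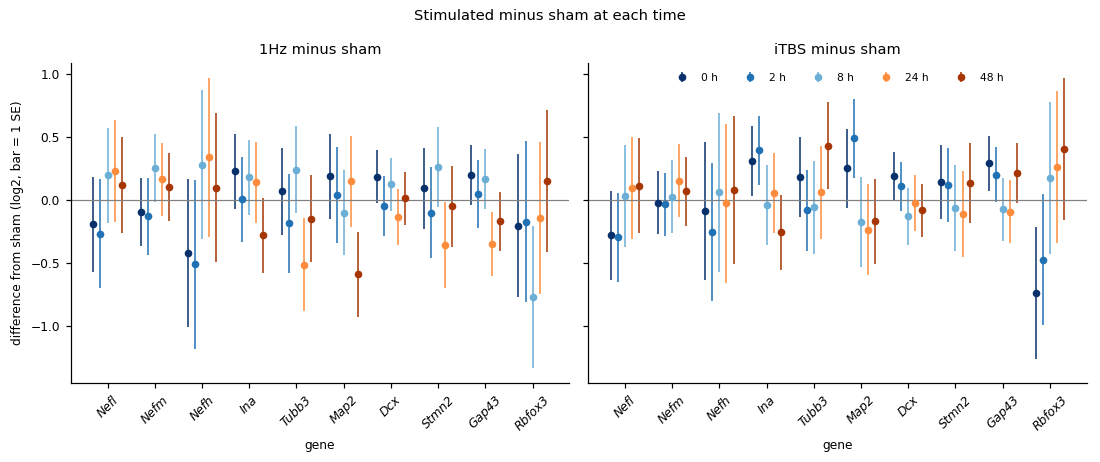
Difference of 1Hz and of iTBS from SHAM for each gene at each of the 5 times (log2 difference, bars of 1 SE, group means with no series term). Points lie on both sides of 0, 54 above and 46 below, and the farthest is Rbfox3 for 1Hz at 8 h at -0.77 ± 0.57.

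The time course did not differ between the arms for any member at the threshold (every adjusted p = 1, limma, where 0% of probes passed and 3.35% of probes had an unadjusted p under 0.05). Untreated against sham cultures at 0 h, the comparison for handling, passed for no member, where 0.0028% of probes passed and 2.43% had an unadjusted p under 0.05. Map2 differed most (-0.63 ± 0.31, adjusted p = 1). The CTR arrays came from series A and C only.

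**Figure D5:**
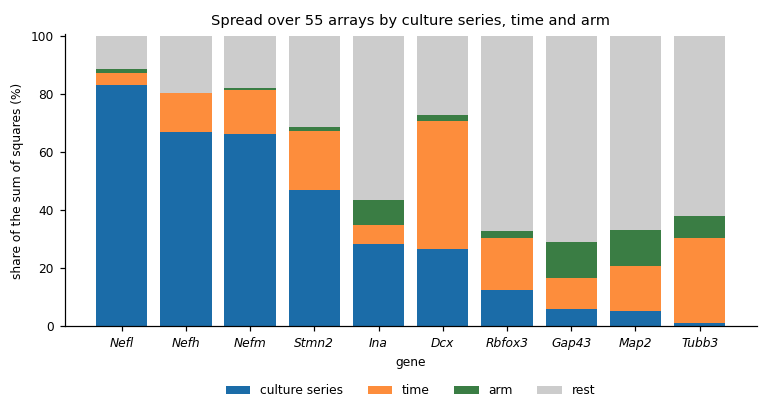
Share of each gene's variance over the 55 arrays that series, time and arm took in that order in a linear fit, and the rest (percent, stacked to 100). The arm includes the untreated CTR arrays beside SHAM, 1Hz and iTBS. Series took 83.1% for Nefl and 1.16% for Tubb3, and time took 43.8% for Dcx.

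The split of the variance sums up these patterns for each gene. Series took 83.1% for Nefl, 66.9% for Nefh and 66.3% for Nefm, but 28.5% for Ina and 26.8% for Dcx. Time took 43.8% for Dcx and 29.3% for Tubb3. The arm took between 0.174% (Nefh) and 12.4% (Map2 and Gap43), and for Tubb3, Map2, Gap43, Rbfox3 and Ina most of the variance was in none of these terms. The arm here includes the untreated CTR arrays of 0 h, so its share is not that of rTMS alone. For Map2, CTR differed from sham by -0.63, and 1Hz and iTBS averaged over times by -0.05 and 0.02.

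Across the 55 arrays some members varied together. Nefl and Nefm had r = 0.83, Tubb3 and Gap43 r = 0.82, Stmn2 and Dcx r = 0.75 and Map2 and Ina r = 0.70, while Map2 and Rbfox3 had r = -0.49. These correlations describe arrays that share series, slides and times. They also include single arrays far from the rest. Rbfox3 was 1.39 on replicate 1 of 1Hz at 8 h, and Map2 was 4.76 on replicate 1 of 1Hz at 48 h. The correlations of Map2 and of Rbfox3, here and in the next sentences, were not recomputed without these arrays. Over all genes with a symbol, the pattern most like that of Tubb3 was of another tubulin, Tuba1b (r = 0.88), that of Dcx was like Prkar2b (0.89) and Stmn1, a stathmin (0.88), and that of Gap43 was like Tmsb10 (0.88). Nefl was most like Twist1 (0.90), Nefm like Chn1 (0.87), Nefh like Amigo2 (0.85), Ina like Epm2aip1 (0.89), Stmn2 like Crip2 (0.91), Map2 like Cpeb4 (0.94) and Rbfox3 like Pafah1b3 (0.94).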

How the data were processed

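The 1-colour Agilent scanner files hold deposited processed signals (intensity, background corrected and extracted by the authors with Feature Extraction 12.0.3.1, design annotation on rn4), and the deposited value table holds z-scores of each array (a score), used only as an alternative. Control spots were dropped, spots of a probe averaged, and each array's log2 signal was z-scored, as in the study's methods, then rescaled by 4.06, the median of the arrays' SDs. Probes complete on 55 arrays (45178) were kept if well above background on 3 or more of the 55 arrays, leaving 35694. limma 3.58.1 in R 4.3.3 was fitted to all of them, with group means for each protocol against sham and for CTR, and with group means plus series otherwise, and Benjamini-Hochberg adjusted p under 0.05. Rise or fall also required the same sign under 75th percentile and quantile scaling. Each member is its brightest probe. From each other list the 3 genes at most with the smallest p for time and for series are named, and the 1 or 2 genes with the highest Pearson r for each member. The members and lists were chosen with earlier results of these data known. The script was tested on simulated data. Alternatives were scaling, background (normexp with the median signals, offset 50), filter, probe mean, the omitted array, slide, series, replicate number and each array in turn. The number of arrays limits the precision.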

Additional observations from a re-analysis of the deposited data

Results flagged for a closer look

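In 5 of 80 sets of 4 arrays (10 genes in 8 groups) 1 array stood far from the other ones by Dixon's test, where chance gives about 4. Dcx was 8.62 on replicate 4 of iTBS at 0 h, in series D, against 7.58 to 7.75 on the others, and Map2 was 7.46 on replicate 1 of SHAM at 2 h, in series B, against 6.47 to 6.63. Replicate 1 of 1Hz at 48 h, in series A, was far off in both Map2 (4.76 against 6.48 to 6.82) and Nefm (7.23 against 6.05 to 6.23). It was also the array least like the median array over all probes (r = 0.971). Rbfox3 was 6.10 on replicate 3 of CTR at 0 h, in series C, against 5.59 to 5.60.

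The course over time differed between the culture series for 6 of 10 members, in a test chosen after the data were seen (F test of the series by time interaction, limma, adjusted over all probes), where 39.4% of all probes passed. The adjusted p was 3.332e-06 for Rbfox3, 0.0001126 for Tubb3, 0.005544 for Gap43, 0.01099 for Stmn2, 0.01423 for Dcx and 0.03363 for Nefh. The 75th percentile scaling ended the call for Nefh (0.0629), and quantile scaling ended those for Stmn2 (0.168) and Dcx (0.0882). Under normexp with quantile scaling Nefl passed (0.00909) and Stmn2 did not (0.132). Map2 (0.381), Nefl (0.0923), Nefm (0.0962) and Ina (0.329) did not pass.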

How the results depend on the processing

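Scaling, the filter on dim probes, the mean of all probes of a gene, the deposited z-scores and the omission of 1 or 2 arrays kept the number of members passing within 1.5 times where they were run, except for time in the sham arm. There 0 members passed in the fit as reported and 2 (Dcx and Stmn2) under 75th percentile, quantile and normexp scaling. Over time 5 members passed as reported, 0 with all 56 arrays, 1 with the slide as a block, 2 with the slide beside the series, 2 with no series in the model, 2 without series D and 4 with series B, C and D only. Between series 6 passed as reported, 5 without series D and 1 with all 56 arrays, and for rTMS against sham 0 passed as reported and 7 with all 56 arrays, the added one being the array with the bad grid. With a replicate block by title number, 5 members passed over time and 7 between series, and the number stayed at 0 for the other comparisons. Arrays with the same title number were less alike than arrays of the same series. Their deviations from the group means correlated at 0.16 on average, with the lowest at -0.46. The average was -0.06 for arrays with other numbers and 0.40 for arrays of the same series. The array of D always had the last number of its group, so title numbers are partly tied to the series. Leaving out each array in turn gave 6 to 7 members for series, 5 to 6 for time, 0 to 1 for time in sham (1 without replicate 4 of iTBS at 0 h) and 0 to 0 for rTMS, CTR, the averages and the interaction.

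Signs turned as follows, and the cause was not tested. With all 56 arrays, C minus the mean of A and B became 0.049 for Nefm and 0.27 for Stmn2, A minus B -0.41 for Dcx and -0.21 for Stmn2, and A minus C -0.013 for Nefm and -0.37 for Stmn2. With the slide as a block Nefh at 24 h became 0.17, and with the replicate block Rbfox3 in B minus D became 0.023. Within series B, 24 h minus 0 h was 0.29 for Tubb3 and 0.0058 for Stmn2, and 48 h minus 0 h was 0.63 for Tubb3 and 0.19 for Stmn2. Nefh at 24 h was 0.29 within C and Nefm at 48 h -0.032 within D. With fitted series levels subtracted, late minus early on slide 5 was -0.21 for Nefm and 0.19 for Map2. On slide 6 it was 0.12 for Map2. Neither slide holds a 48 h array, so these are not 48 h changes. Within 24 h, where series A had 1 array, A minus B was -0.13 for Dcx and -0.33 for Stmn2. There B minus D was 0.17 for Rbfox3. Within 48 h A minus B was -0.062 for Stmn2 and B minus D 0.21 for Rbfox3. Within 8 h, where series A again had 1 array, A minus D was 0.059 for Dcx.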
